A study of Mus musculus with 23 samples.

Results

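The 10 genes described here encode the core and accessory subunits of Polycomb repressive complex 2 (PRC2): Ezh1, Ezh2, Eed, Suz12, Jarid2, Mtf2, Phf1, Phf19, Rbbp4 and Rbbp7. They were taken by symbol from a table of raw read counts with 23725 gene lines, and each of the 10 symbols matched 1 line. All 10 passed the filter on low counts and were tested in every comparison. The mouse embryos were at stage E6.25, just before gastrulation, and were divided into epiblast (E), the source of all tissues of the body, and extra-embryonic tissue (ExE), a source of the placenta. Both tissues came from embryos that were wild-type, Tet1gt/wt (heterozygous) or Tet1gt/gt (homozygous) for the Tet1gt allele of Tet1, which encodes an enzyme that oxidises 5-methylcytosine in DNA. Each library was made from polyA RNA of a pool of at least 6 embryos from 2 or 3 litters. There were 4 pools in each of the 6 groups, except the homozygous ExE group, which had 3, and so 23 libraries in all. No strain or sex was given, and embryos of a pool shared their genotype but not always their litter.

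PRC2 places methyl groups on lysine 27 of histone H3, a mark of silenced developmental genes. Ezh2 and Ezh1 are alternative catalytic subunits, Eed binds the finished mark and stimulates the enzyme, Suz12 is the scaffold, and Rbbp4 and Rbbp7 are histone-binding WD40 proteins that PRC2 shares with other chromatin complexes. Accessory proteins define the complex variants: 1 of the Polycomb-like proteins Phf1, Mtf2 and Phf19 in the first, and Jarid2 with Aebp2 in the second. In embryonic stem cells Tet1 and PRC2 are known to occupy many of the same CpG-rich promoters, and in extra-embryonic tissue the PRC2 mark inherited from the egg keeps the maternal copy of some imprinted genes silent.

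The promoters of 3 members are printed because Phf19 and Suz12 stood higher in ExE while Ezh2 did not. Each runs from 250 bases before to 50 bases after the RefSeq gene start (assembly GRCm38.p6), 5′ to 3′ on the strand of the gene, with matched motifs in capitals.
Phf19: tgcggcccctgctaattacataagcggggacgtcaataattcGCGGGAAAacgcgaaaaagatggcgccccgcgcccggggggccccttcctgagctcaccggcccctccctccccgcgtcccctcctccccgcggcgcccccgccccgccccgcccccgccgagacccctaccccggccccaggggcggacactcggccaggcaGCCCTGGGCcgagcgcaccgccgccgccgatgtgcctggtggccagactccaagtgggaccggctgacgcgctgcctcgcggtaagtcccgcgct
Suz12: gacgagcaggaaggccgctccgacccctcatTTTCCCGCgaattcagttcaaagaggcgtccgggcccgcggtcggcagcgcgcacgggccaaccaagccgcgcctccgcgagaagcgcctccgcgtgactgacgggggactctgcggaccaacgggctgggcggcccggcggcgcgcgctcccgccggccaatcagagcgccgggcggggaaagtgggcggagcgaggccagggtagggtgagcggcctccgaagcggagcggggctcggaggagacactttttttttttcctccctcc
Ezh2: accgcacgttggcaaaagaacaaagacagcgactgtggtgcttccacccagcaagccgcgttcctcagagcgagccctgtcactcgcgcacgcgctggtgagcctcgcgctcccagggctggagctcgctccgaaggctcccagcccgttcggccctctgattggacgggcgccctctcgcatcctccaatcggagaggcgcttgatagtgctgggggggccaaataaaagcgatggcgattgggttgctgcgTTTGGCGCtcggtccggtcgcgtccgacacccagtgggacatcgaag
The Phf19 window lies at chr2:34913927-34914226 on the minus strand, the Suz12 window at chr11:79992856-79993155 on the plus strand and the Ezh2 window at chr6:47594981-47595280 on the minus strand. Both strands were searched for 5 motifs. The E2F motif TTTCCCGC was found in Suz12 and, on the opposite strand, in Phf19, and among 32841 RefSeq promoters of this length 1.07% held it. The other E2F motif, TTTGGCGC, was found in Ezh2 and in 0.515% of all promoters. The TFAP2 motif GCCNNNGGC, which reads the same on both strands, was found in Phf19 and Rbbp7 and in 16.6% of all promoters. Neither the ETS motif CCGGAAGT nor the octamer ATGCAAAT was found in a window of any member. The windows were CpG-rich: that of Suz12 held 41 CpG dinucleotides, that of Phf19 held 38 and that of Ezh2 held 31, beside a median of 7 over all promoters. The E2F motifs were thus found in different genes, and their part in the tissue differences was not tested. A match is not a bound site.

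Library depth ranged from 4912215 to 9494814 counts, with 13028 to 14360 genes detected. Of the 23 libraries 3 stood apart: in the pools E het 4, E hom 3 and ExE hom 3 the level relative to the other libraries fell with gene length (slope -0.49 to -0.43 per doubling of length, against -0.10 to 0.14 in the other 20) and rose with GC content. In these 3 pools 7, 6 and 7 of the 10 members lay below all other pools of their group, so results are given with and without them. Tet1, the targeted gene, was at 127 to 197 CPM (the count relative to the scaled library total) in wild-type E and 54.9 to 112 in homozygous E, and at 77.0 to 109.9 in wild-type ExE and 21.5 to 37.7 in homozygous ExE, with no overlap in either tissue. The 10 epiblast markers, Pou5f1 among them, summed to 6794 to 10529 CPM in E and to 1924 to 4542 CPM in ExE. The 12 markers of extra-embryonic ectoderm and ectoplacental cone (ExE markers) summed to 188 to 751 CPM in E and to 1854 to 3686 CPM in ExE. Each tissue thus carried some RNA of the other's markers, and in pools a lower share of a cell type and less RNA per cell cannot be told apart. Whether this RNA came from cells of the other tissue was not tested. The 13 markers of visceral endoderm summed to 7.35 to 602 CPM in E, with Afp, Hnf4a and Cer1 at 0 in all heterozygous E pools, and to 13.5 to 233 CPM in ExE, and their part in the results was not tested.

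Per kilobase of exon, the histone-binding pair was the most abundant and Phf1 the least. In E the mean level over 12 libraries was 189.9 CPM per kb for Rbbp4, 161 for Rbbp7, 81.6 for Eed, 65.1 for Jarid2, 55.6 for Ezh2, 41.5 for Suz12, 31.8 for Mtf2, 5.37 for Ezh1, 0.941 for Phf19 and 0.718 for Phf1. Neighbours in this order overlapped between libraries except at 2 steps, from Rbbp7 to Eed and from Mtf2 to Ezh1. In ExE the means over 11 libraries were 259 CPM per kb for Rbbp7, 160.2 for Rbbp4, 76.9 for Eed, 72.3 for Jarid2, 69.7 for Suz12, 44.4 for Ezh2, 28.4 for Mtf2, 11.3 for Phf19, 3.26 for Ezh1 and 1.39 for Phf1. Here Rbbp7, Rbbp4 and Eed were separated from each other, as was Phf19 from Ezh1, and the other neighbours overlapped. The order was the same when the longest coding transcript gave the length. Ezh2 was the main catalytic transcript in both tissues, with Ezh2 at 6.95 to 24.8 times Ezh1 per kb in E libraries and 8.00 to 26.5 times in ExE libraries.

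**Figure D1:**
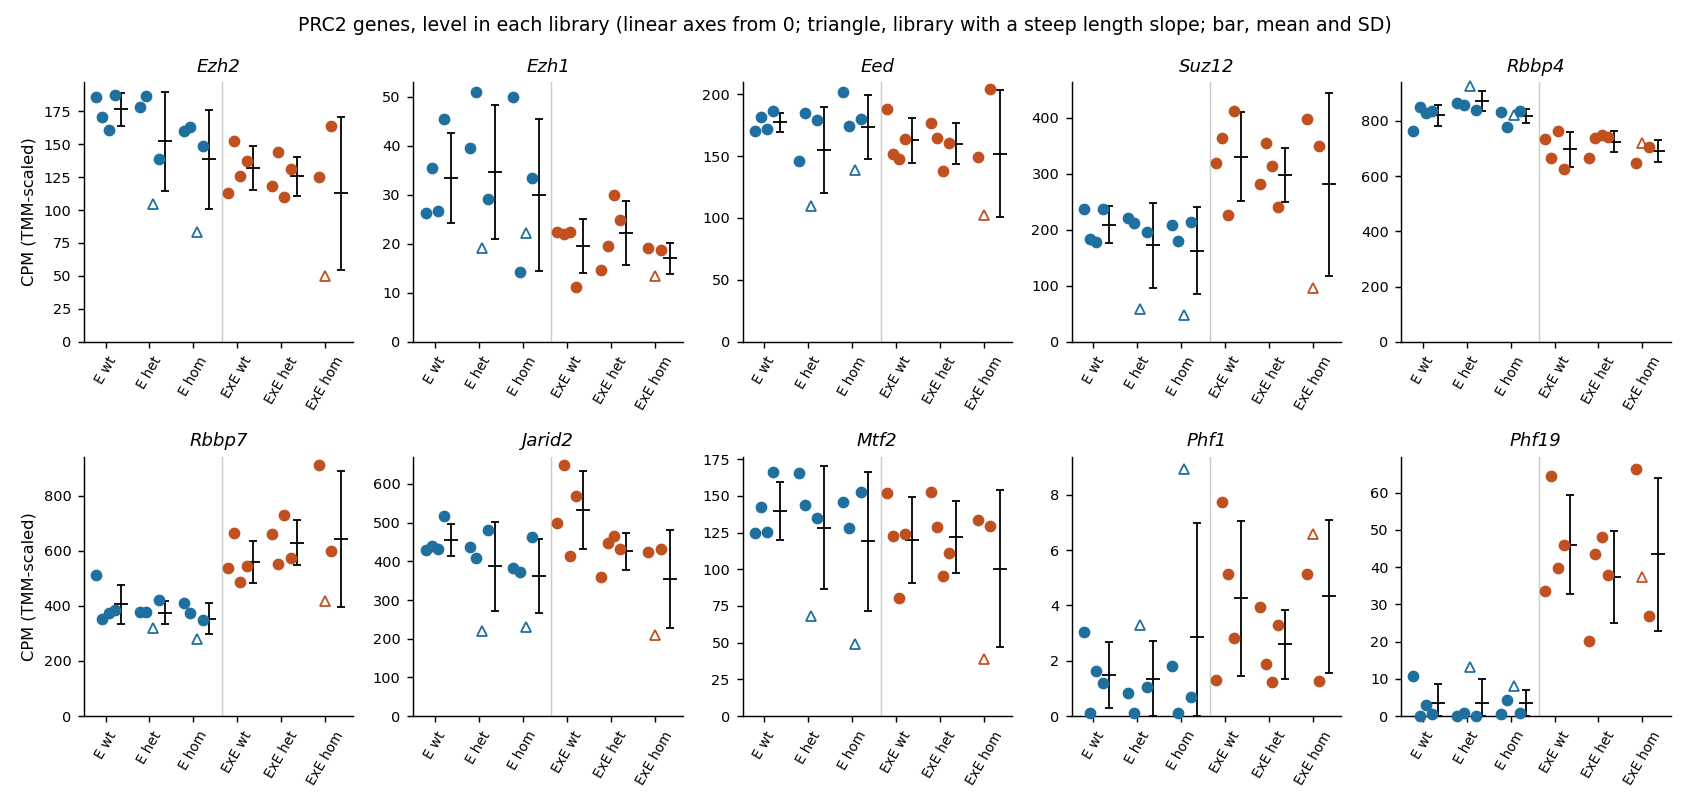
Level of each PRC2 gene in the 23 libraries, in TMM-scaled CPM on linear axes from 0, by tissue and Tet1 genotype; circles are pools, triangles the 3 pools with a steep length slope, and bars the mean and SD (cut at 0). Phf19 lay at 0 to 13.1 CPM in E and at 20.1 to 66.3 CPM in ExE, and the triangles were the lowest points for Suz12, Jarid2, Mtf2 and Ezh2 in their groups.

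The first question was how the subunits differed between the tissues, asked within each genotype. Phf19 was higher in ExE in all 3 genotypes by edgeR, Rbbp7 in the heterozygous and homozygous pools, and Rbbp4 was slightly lower in heterozygous ExE. By edgeR's quasi-likelihood test with Benjamini-Hochberg adjustment over all 13595 genes, 1 of 10 members was called in wild type, where 17.3% of all genes were called. In heterozygous pools 3 of 10 were called, against 27% of genes, and in homozygous pools 2 of 10, against 16.8%. These shares were near the background. The E and ExE pools of a number were then paired, which the labels tie to shared litters in 3 of 4 pools. Paired, 4, 3 and 4 members were called (25.8%, 30.6% and 20.9% of genes). E het 4, ExE het 1 and E hom 2 had no partner and added nothing to a paired difference. Among the homozygous pairs was that of E hom 3 and ExE hom 3, both of steep slope. Without the 3 pools of steep slope 5, 5 and 4 members were called (26.3%, 35.6% and 20% of genes). To use all 23 libraries the mean of the 3 tissue differences was also fitted, an analysis added after the values were seen, and it called 5 of 10 members, against 46.1% of genes. It called 7 of 10 with pools paired, against 51.2%, and 7 of 10 without the 3 pools, against 52.6%. P-values here measure the spread between pools.

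Phf19 encodes a Polycomb-like protein that binds CpG-rich DNA and methylated lysine 36 of histone H3, and brings PRC2 to its targets. In wild-type E its level was 10.8, 0, 3.12 and 0.591 CPM in pools 1, 2, 4 and 5, and in wild-type ExE it was 33.7, 64.6, 39.8 and 45.9 CPM. In heterozygous E it was 0, 0.922, 13.1 and 0 CPM in pools 2, 3, 4 and 5, and in heterozygous ExE 20.1, 43.6, 48.1 and 37.8 CPM in pools 1, 2, 3 and 5. In homozygous E it was 0.560, 4.27, 8.07 and 0.846 CPM in pools 1 to 4, and in homozygous ExE 66.3, 37.2 and 26.8 CPM in pools 1, 3 and 4. Every ExE pool of the 3 genotypes therefore lay above every E pool, a separation that 7.69% of all genes showed. The fitted log2 difference was 3.66 ± 1.14 (SE) in wild type (adjusted p = 0.0286), 3.49 ± 1.14 in heterozygous (adjusted p = 0.0264) and 3.67 ± 1.18 in homozygous pools (adjusted p = 0.0348), by edgeR. As a fold this was 12.7 in wild type, with a 95% interval of 2.48 to 64.8. Over the mean of the genotypes the log2 difference was 3.61 ± 0.66 (edgeR adjusted p = 1.23e-04), 5.39 with pools paired and 5.01 without the 3 pools. In heterozygous pools alone it was 7.29 with pools paired and 6.83 without the 3 pools. Both fits leave E het 4 out of this difference, and the E pools that remained held 0 to 8 reads of Phf19. The calls within a genotype were lost when 1 of several pools was left out, with adjusted p up to 0.0852 in wild type, 0.0756 in heterozygous and 0.106 in homozygous pools. In homozygous pools DESeq2 gave 3.61 ± 1.43 and no call (adjusted p = 0.0518). The mean over genotypes stayed called whichever single pool was left out. The 3 E pools with the most Phf19, E het 4, E wt 1 and E hom 3, were also the 3 with the highest summed ExE markers, at 751, 634 and 509 CPM, and the part of these markers in the E values was not tested.

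Among the other Polycomb-like genes, Mtf2 carried on average most of the transcript in both tissues and Phf1 almost none. Mtf2, which like Phf19 binds CpG-rich DNA, was at 125, 142, 125 and 166 CPM in wild-type E and at 152, 123, 80.6 and 124 CPM in wild-type ExE. These ranges overlapped, and the log2 difference was -0.22 ± 0.34 (edgeR adjusted p = 0.732), with -0.18 ± 0.20 over the mean of the genotypes (adjusted p = 0.503). With the pools paired the mean difference was -0.30 and was called (adjusted p = 0.0123). Phf1 was at 0.110 to 3.03 CPM in wild-type E and 1.32 to 7.75 CPM in wild-type ExE, and over all libraries 1 to 70 reads stood behind these values. Its log2 difference of 1.51 ± 1.03 in wild type was not called (edgeR adjusted p = 0.348). Its mean over genotypes was 1.03 ± 0.60 (adjusted p = 0.174) with all pools and 1.76 ± 0.61 (adjusted p = 0.0191) without the 3 pools. The count of Phf1 is uncertain, because 39.3% of its exon bases overlap Cuta on the opposite strand and it is not given whether counting used strand. Of the summed Polycomb-like level per kb, Phf19 made up 0 to 16.2% in E libraries and 12.1 to 45.3% in ExE libraries. Without the pools of steep slope it made up 0 to 8.28% in E and 12.1 to 34.9% in ExE. The 45.3% was that of ExE hom 3, where Mtf2 made up less, 43.3%.

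Jarid2, which lacks demethylase activity and links PRC2 to ubiquitinated histone H2A, did not separate the tissues. It was at 429, 440.4, 432 and 517 CPM in wild-type E and at 499, 648, 414 and 569.9 CPM in wild-type ExE. The ExE pools spread more widely and reached both below and above the E pools, with a log2 difference of 0.23 ± 0.24 (edgeR adjusted p = 0.574). Over the mean of the genotypes it was 0.11 ± 0.14 (adjusted p = 0.55), with a 95% interval of -0.18 to 0.41.

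The catalytic subunits were both lower in ExE in their fitted values. Ezh2 (chr6:47530139-47595341, minus strand, mm10) was at 186, 171, 161 and 187 CPM in wild-type E and at 113, 152, 126 and 137 CPM in wild-type ExE. All 4 ExE pools lay below all 4 E pools in wild type, as 28% of genes did in 1 direction or the other, but in the other genotypes the tissues overlapped. The log2 difference in wild type was -0.42 ± 0.26 (edgeR adjusted p = 0.305) and became a call, at -0.43 ± 0.13 (adjusted p = 0.0163), when the 3 pools, none of them wild-type, were left out of the shared estimate of spread. The heterozygous difference of -0.28 ± 0.26 became a call as well, at -0.43 (adjusted p = 0.0182). The homozygous difference was not called with or without the 3 pools. When 1 pool was left out it ran from -0.66 to 0.067, and it was positive without ExE hom 3. Over the mean of the genotypes the Ezh2 difference was -0.33 ± 0.16 (edgeR adjusted p = 0.088), with adjusted p = 0.00572 when pools were paired and 0.00235 without the 3 pools. Ezh1, the less active enzyme found mostly in non-dividing tissues, was at 26.2, 35.4, 26.6 and 45.5 CPM in wild-type E and at 22.3, 21.9, 22.4 and 11.2 CPM in wild-type ExE. The ExE pools were again the lower ones without overlap in wild type, while the tissues overlapped in the other genotypes. Its log2 difference was -0.78 ± 0.36 in wild type (edgeR adjusted p = 0.143), -0.65 ± 0.36 in heterozygous and -0.81 ± 0.39 in homozygous pools, and the mean over genotypes, -0.75 ± 0.21, was called (adjusted p = 0.00652).

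Of the other core subunits, Suz12 was higher in ExE and Eed did not separate the tissues. Suz12 (chr11:79993106-80034123, plus strand, mm10) was at 238, 184, 177 and 237 CPM in wild-type E and at 319, 364, 225 and 411 CPM in wild-type ExE. It was at 221, 212, 59.1 and 197 CPM in heterozygous E and at 281, 355, 315 and 241 CPM in heterozygous ExE. It was at 209, 179.8, 48.4 and 214 CPM in homozygous E and at 398, 95.1 and 349 CPM in homozygous ExE. The ExE pools were the higher ones, with an overlap of 1 ExE pool with 2 E pools in wild type, none in heterozygous pools and that of ExE hom 3 in homozygous pools. The lowest values were those of E het 4, E hom 3 and ExE hom 3, at 28.1%, 24.1% and 25.5% of the mean of the other pools of their group. The log2 difference was 0.66 ± 0.41 in wild type, 0.79 ± 0.42 in heterozygous and 0.79 ± 0.44 in homozygous pools, and none of these was called (edgeR adjusted p of 0.305, 0.172 and 0.239). With pools paired all 3 were called by edgeR, at 0.64, 0.52 and 0.86 (adjusted p of 0.00158, 0.0109 and 0.00107). Without the 3 pools they were called likewise, at 0.65, 0.50 and 0.88 (adjusted p of 0.00369, 0.0255 and 0.00313). Both heterozygous values leave out E het 4, which had no partner, so they are not separate checks. The mean over genotypes was 0.74 ± 0.25 (adjusted p = 0.0162), a fold of 1.68 with a 95% interval of 1.18 to 2.38. Eed was at 169.9, 182, 172 and 186 CPM in wild-type E and at 188, 152, 147 and 164 CPM in wild-type ExE. Its mean log2 difference over genotypes was -0.09 ± 0.11 (edgeR adjusted p = 0.532), with a 95% interval of -0.32 to 0.14.

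Rbbp4 and Rbbp7, close paralogs, differed between the tissues in opposite directions. Rbbp4 was at 764, 851, 829 and 838 CPM in wild-type E and at 735, 667, 765 and 625 CPM in wild-type ExE. It was at 864, 858, 925 and 840.1 CPM in heterozygous E and at 667, 739, 749.7 and 744 CPM in heterozygous ExE. In homozygous pools it was at 833, 779, 823 and 837 CPM in E and in ExE at 647, 719.9 and 707 CPM. The tissues overlapped by 1 pool in wild type and did not overlap in the other genotypes, as 29.7% and 23.3% of genes did not. The log2 difference was -0.23 ± 0.10 in wild type (edgeR adjusted p = 0.107), -0.27 ± 0.10 in heterozygous (adjusted p = 0.0432) and -0.24 ± 0.11 in homozygous pools (adjusted p = 0.122). Paired, the wild-type and homozygous differences were called (adjusted p of 0.0306 and 0.0387) and the heterozygous one was not (adjusted p = 0.0903). The heterozygous call was also lost in 7 of the 8 fits that left out 1 pool of its groups, with adjusted p up to 0.124. The mean over genotypes was -0.25 ± 0.06 (adjusted p = 0.00127), a fold of 0.841.

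Rbbp7, an X-linked gene (chrX:162760402-162779092, plus strand, mm10), was at 511, 354, 373 and 383 CPM in wild-type E and at 538, 666, 488 and 545 CPM in wild-type ExE. It was at 379, 378, 320.2 and 421 CPM in heterozygous E and at 662, 551, 729 and 575 CPM in heterozygous ExE. Homozygous pools were at 411, 375, 278 and 349 CPM in E and at 909, 419 and 599.8 CPM in ExE. One wild-type E pool, E wt 1, reached into the ExE range, and the other genotypes did not overlap. E wt 1 was also the E pool of lowest Rbbp4, of the second-highest summed ExE markers and of the highest summed visceral endoderm markers (602 CPM). The E pools of highest and third-highest ExE markers, both of steep slope, went the other way. E het 4 had the highest Rbbp4 of the E pools, with Rbbp7 at 320.2 CPM, and E hom 3 the lowest Rbbp7. The part of these markers in the values was not tested. The log2 difference was 0.46 ± 0.19 in wild type (edgeR adjusted p = 0.0971, and 0.0173 when paired), 0.74 ± 0.19 in heterozygous (adjusted p = 0.00555) and 0.86 ± 0.20 in homozygous pools (adjusted p = 0.00612). The homozygous call was lost without ExE hom 1, the highest pool (0.53, adjusted p = 0.0866). Over the mean of the genotypes Rbbp7 rose by 0.69 ± 0.11 in ExE (adjusted p = 2.94e-05), a fold of 1.61 with a 95% interval of 1.37 to 1.90. Beside this X-linked gene, the 4 Y-linked markers summed to 31.0 to 185 CPM in E pools and to 4.56 to 90.5 CPM in ExE pools, and their part in the difference was not tested. A processed pseudogene, Gm6382, matches the longest coding transcript of Rbbp7 (2244 bases) at 97.1% identity over 942 aligned bases. It has no line in the table, and how reads of the matching stretch were assigned was not tested.

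**Figure D2:**
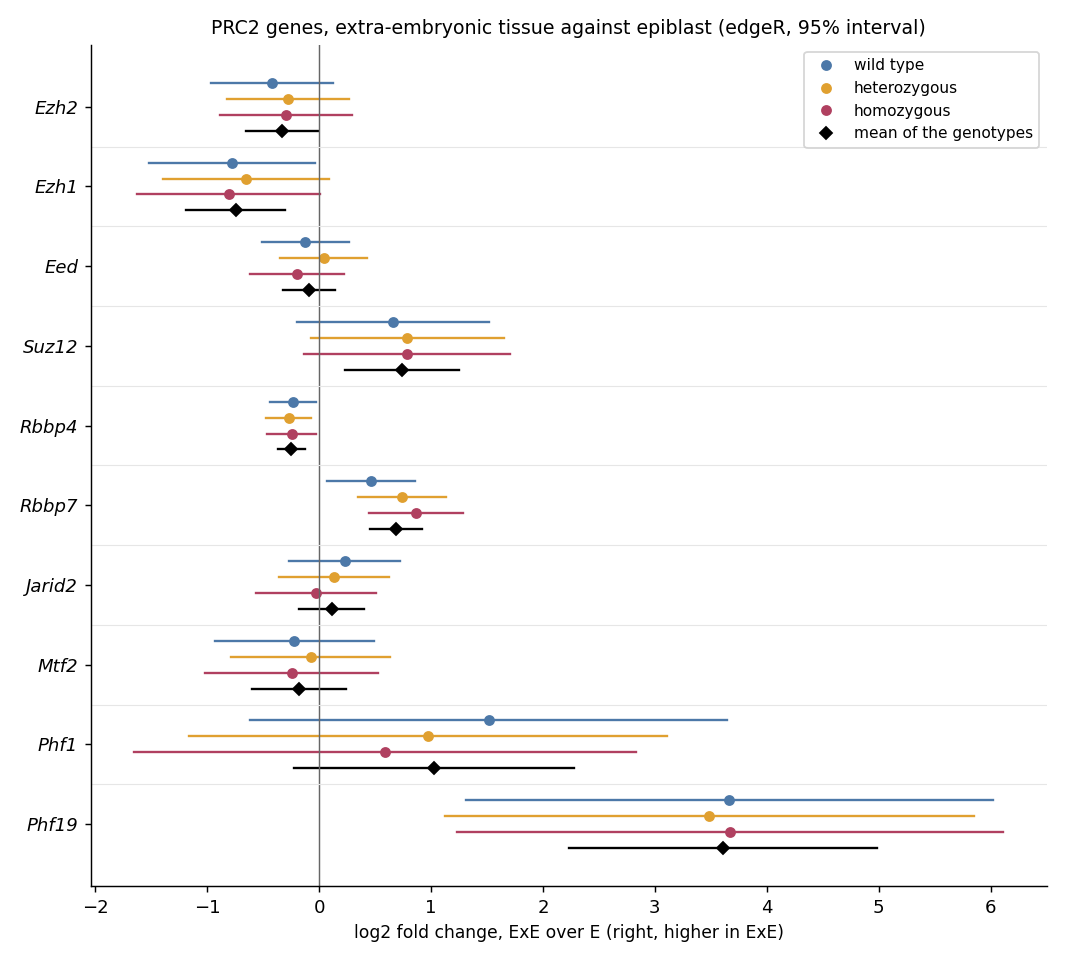
Log2 fold change of each PRC2 gene in extra-embryonic tissue over epiblast (x axis), within wild-type, heterozygous and homozygous pools and as the mean of the 3, with 95% intervals. Phf19 lay to the right at 3.49 to 3.67 in all genotypes, Rbbp7 and Suz12 at 0.46 to 0.86, and Rbbp4 and Ezh1 to the left.

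Ratios within a library need no scaling between libraries, so they were set beside the fold changes as a description. The ratio of Suz12 to Ezh2 per kb was 0.361 to 0.926 in the 12 E libraries and 1.15 to 2.04 in the 11 ExE libraries. The 2 sets did not overlap, and without the 3 libraries of steep slope the E range was 0.689 to 0.926 and the ExE range was as before. The ratio of Suz12 to Eed overlapped between the tissues, at 0.165 to 0.715 in E and 0.440 to 1.26 in ExE, and at 0.478 to 0.715 and 0.710 to 1.26 without those libraries. The ratio of Rbbp4 to Rbbp7 was 0.795 to 1.58 in E, with a mean of 1.21 ± 0.21 (SD, n = 12), and 0.379 to 0.914 in ExE, with a mean of 0.647 ± 0.151 (SD, n = 11). Rbbp4 was thus the more abundant of the pair in 11 of 12 E libraries and Rbbp7 in all 11 ExE libraries, and the sets overlapped because E wt 1, at 0.795, lay below ExE hom 3, at 0.914, and ExE wt 4, at 0.835. The ratio of Ezh2 to Ezh1 did not separate the tissues, with a mean of 11.5 ± 4.83 over the 12 E libraries and of 14.5 ± 5.35 over the 11 ExE libraries (SD).

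**Figure D3:**
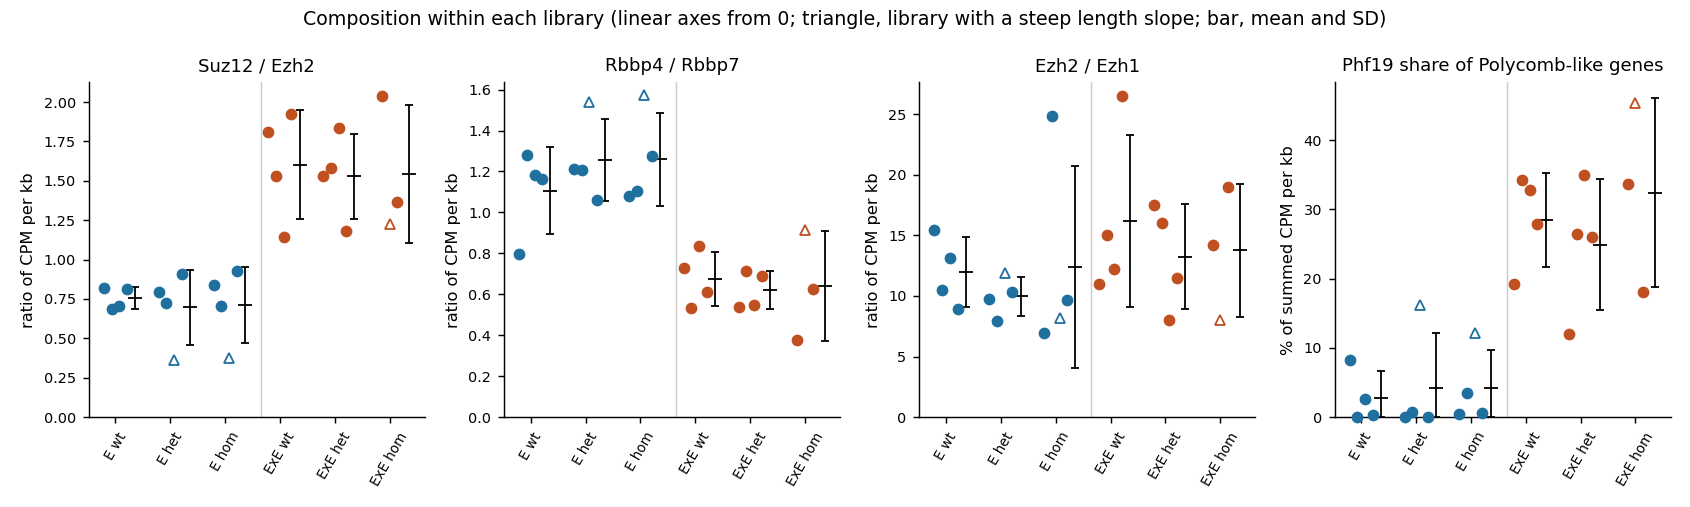
Ratios of transcript levels per kb in each library for Suz12 to Ezh2, Rbbp4 to Rbbp7 and Ezh2 to Ezh1, and the Phf19 share of the summed Polycomb-like transcript level. Axes are linear from 0, and symbols are as in the plot of levels. Protein was not measured. The Suz12 to Ezh2 ratio was at most 0.926 in E and at least 1.15 in ExE.

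The second question was whether the subunits differed with Tet1 genotype. No member was called in either tissue in homozygous against wild-type pools, by edgeR or by DESeq2. In ExE edgeR did not call Tet1 either, although its homozygous and wild-type pools did not overlap. The lack of a call therefore does not exclude a change. Few genes were called at all: 0.0161% of 12405 genes in E, where 520 had an unadjusted p under 0.05 and DESeq2 called 17, and 0% of 12355 in ExE, where 935 did and DESeq2 called 16. In homozygous E, Ezh2 was at 159.7, 163, 83.2 and 148 CPM, beside 161 to 187 in wild type, and the log2 difference was -0.34 ± 0.23. Without the pools of steep slope, E het 4 and E hom 3 (the third value), it was -0.16 ± 0.12. E het 4 is not in this comparison but enters the shared estimate of spread. Suz12 differed by -0.35 ± 0.42 with all pools and by -0.05 ± 0.12 without those pools. Jarid2 was at 383, 373, 230.1 and 462 CPM in homozygous E and differed by -0.32 ± 0.24, or by -0.16 ± 0.10 without those pools. Mtf2 differed by -0.22 ± 0.32, Rbbp7 by -0.19 ± 0.17, Ezh1 by -0.15 ± 0.38, Phf19 by -0.08 ± 1.54 and Eed by -0.02 ± 0.18. Rbbp4 differed by 0.0043 ± 0.11, with a 95% interval of -0.22 to 0.23, and Phf1 by 0.93 ± 1.19. The fitted values were negative for 8 of 10 members, with a median of -0.17 beside 0.01 over all genes. Without the pools of steep slope they were negative for 8 of 10, with a median of -0.07. The groups overlapped for all 10 members, where 4.41% of genes did not overlap. Without the pools of steep slope 0.0316% of genes were called, and again no member.

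In ExE, Jarid2 had the lowest fitted value of the members, and the groups overlapped for all 10, where 5.87% of genes did not overlap. Its level in homozygous pools 1, 3 and 4 was 425, 209 and 433 CPM, beside 414 to 648 CPM in wild type. The log2 difference was -0.58 ± 0.25, with an unadjusted p of 0.0369 and an adjusted p of 0.616 by edgeR. Without ExE hom 3 it was -0.32 ± 0.17 (adjusted p = 0.632). Mtf2 differed by -0.25 ± 0.36, Suz12 by -0.23 ± 0.37, Ezh2 by -0.22 ± 0.31, Ezh1 by -0.19 ± 0.34, Eed by -0.10 ± 0.23 and Phf19 by -0.09 ± 0.36. Of these, Mtf2, Suz12, Ezh2, Eed and Phf19 had a positive fitted value without ExE hom 3. Rbbp4 differed by -0.02 ± 0.13 and Phf1 by -0.02 ± 0.76, and both were positive with the median-ratio scaling of DESeq2. Rbbp7 had the highest value, 0.20 ± 0.23, and 0.43 ± 0.17 (unadjusted p = 0.0248, adjusted p = 0.571) without ExE hom 3. With all pools 9 of 10 members had a negative value and without that pool 4 of 10. The 7 markers of maternal decidua summed to 18.4, 254 and 35.4 CPM in homozygous ExE pools 1, 3 and 4. In wild-type ExE pools they summed to 3.32 to 16.6 CPM, and their part in these values was not tested. The 95% interval ran from -0.88 to 0.45 for Ezh2 and from -1.03 to 0.58 for Suz12, and without ExE hom 3 from -0.25 to 0.51 and from -0.27 to 0.62.

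**Figure D4:**
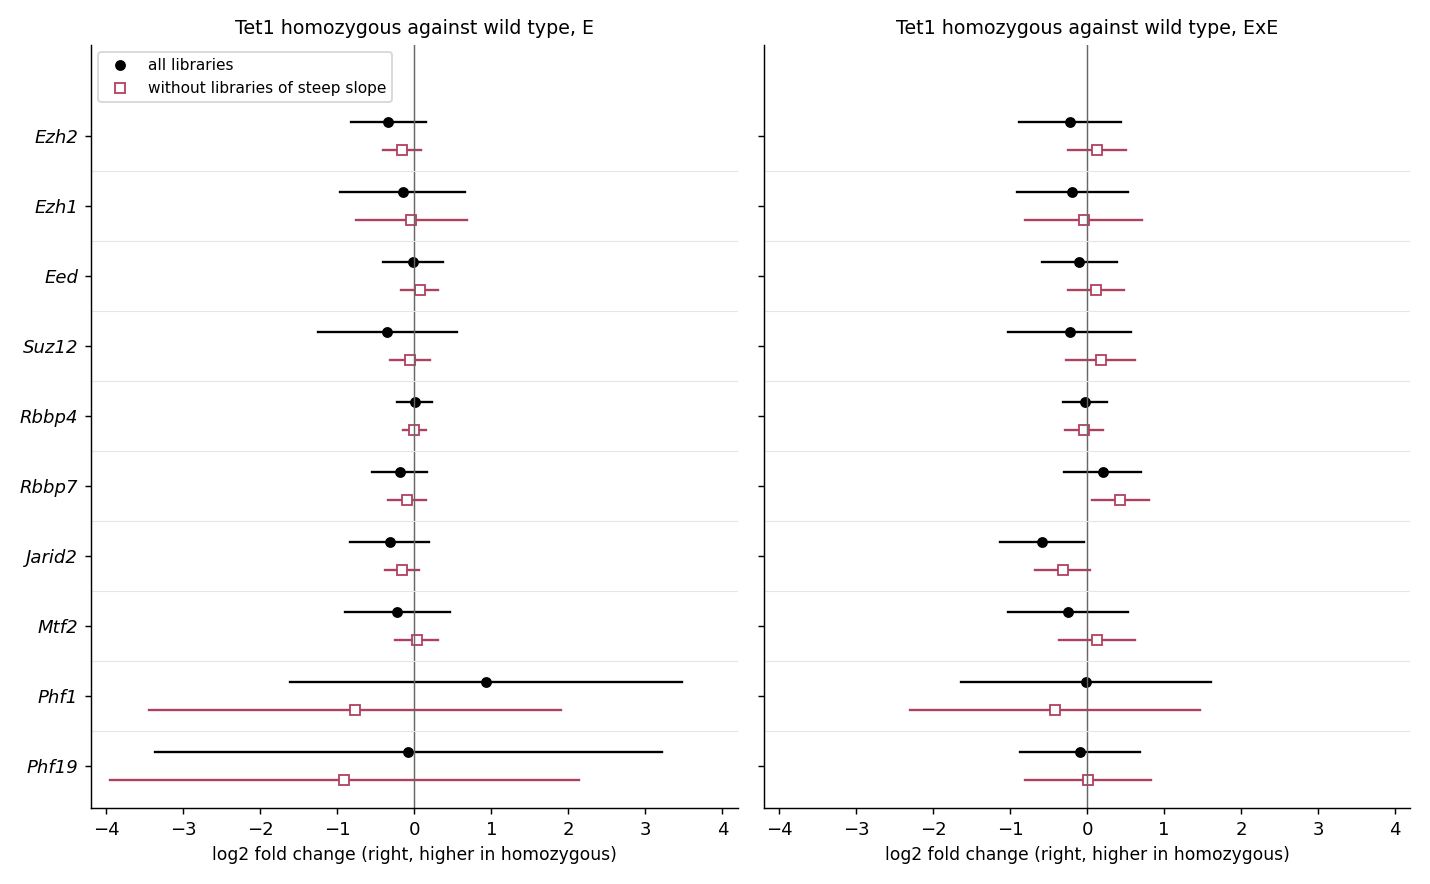
Log2 fold change of each PRC2 gene in homozygous over wild-type pools (x axis), in epiblast (left) and extra-embryonic tissue (right), with 95% intervals, from all libraries (filled circles) and without the libraries of steep length slope (open squares). The intervals for Ezh2, Suz12 and Mtf2 narrowed and moved toward 0 or past it when those libraries were left out, and no member was called in either analysis.

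Heterozygous pools gave no call either. In E, where 0% of genes were called by edgeR, 298 had an unadjusted p under 0.05 and DESeq2 called 4, the members ran from -0.27 ± 0.42 for Suz12 to 0.09 ± 0.11 for Rbbp4. This range rested on E het 4: without the pools of steep slope Suz12 was at 0.02 ± 0.12, Phf1 at -1.12 ± 1.28 and Phf19 at -3.48 ± 1.66 (unadjusted p = 0.0533, edgeR adjusted p = 0.997), with 0 to 8 reads of Phf19 in the heterozygous E pools that remained. In ExE, where 0% were called by edgeR, 510 had an unadjusted p under 0.05 and DESeq2 called 18, they ran from -0.70 ± 0.70 for Phf1 to 0.21 ± 0.31 for Ezh1. The difference between the tissues in the genotype effect was tested as an interaction. For homozygous pools it ran from -0.93 ± 1.49 for Phf1 to 0.40 ± 0.28 for Rbbp7, and for heterozygous pools from -0.54 ± 1.45 for Phf1 to 0.28 ± 0.27 for Rbbp7. Without the pools of steep slope the Phf19 interaction was 0.88 ± 1.26 for homozygous and 3.17 ± 1.42 for heterozygous pools (unadjusted p of 0.492 and 0.0364 by edgeR), and that of Rbbp7 was 0.53 ± 0.22 and 0.22 ± 0.20 (unadjusted p of 0.025 and 0.287). No member was called, and of all 13595 genes edgeR called 0% in both, where 416 and 716 had an unadjusted p under 0.05 and DESeq2 called 3 and 28.

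Other PRC2 partners and the enzymes that act with or against the complex were read from lists of their own. Of 7 further accessory genes, 1 was called in wild-type ExE against E, which is near the 17.3% of all genes called there, and the list's median log2 difference was 0.16 beside -0.01 over all genes. It was Epop (listed as E130012A19Rik), which couples PRC2 to elongin, at 333 ± 44.7 CPM in ExE and 114 ± 29.1 CPM in E (SD, n = 4; log2 difference 1.55 ± 0.35, edgeR adjusted p = 0.00426). Over the mean of the genotypes Epop rose by 1.51 ± 0.21 in ExE, Eloc, an elongin subunit, by 0.45 ± 0.13, and Aebp2, the partner of Jarid2, fell by 0.53 ± 0.17 (adjusted p of 3.56e-06, 0.00712 and 0.0139). Of 25 PRC1 genes, the complex that ubiquitinates histone H2A, 24 were tested in wild type, with 5 called higher and 3 lower in ExE, beside 17.3% of all genes called in either direction, and a median of -0.01. Scmh1 rose by 2.31 ± 0.30, Pcgf5 by 1.63 ± 0.28 and Phc2 by 1.25 ± 0.23, while Phc1 fell by 2.25 ± 0.35, with means of 322 CPM in E and 67.5 CPM in ExE. No gene of either list was called in a genotype comparison.

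Of 6 H3K27 demethylases and PR-DUB genes, 5 were tested in wild type and none was called, beside 17.3% of all genes. Their median log2 difference was -0.13, beside -0.01 over all genes. The demethylases Kdm6a and Kdm6b differed by -0.41 ± 0.44 and -0.0045 ± 0.40. Of 11 genes of the MLL and COMPASS complexes, which methylate lysine 4 of histone H3, none was called in wild type and the median was -0.05. Both lists are short beside the 17.3% of all genes called there, so the lack of a call does not exclude a difference. Of 37 genes known as PRC2 targets in embryonic stem cells, only 10 passed the filter on low counts in the tissue fit, so no share of the list is read. Of these 10, 3 were called higher in wild-type ExE and 0 lower, where 17.3% of all genes were called in either direction. Their median was -1.23, beside -0.01 over all genes. Irx3 was the most abundant of those called in wild type, at 197 ± 38.3 CPM in ExE and 12.2 ± 13.7 CPM in E (SD, n = 4; log2 difference 4.01 ± 1.12, edgeR adjusted p = 0.0164). The median of the list was negative, so Irx3 does not stand for the list. The list of imprinted genes that depend on the maternal PRC2 mark in extra-embryonic tissue held 5 genes. In wild type, where 17.3% of all genes were called in either direction, 4 of the 5 rose in ExE: Sfmbt2 by 3.99 ± 0.91, Gab1 by 3.30 ± 0.55, Slc38a4 by 1.88 ± 0.32 and Smoc1 by 1.31 ± 0.35, while Jade1 differed by 0.74 ± 0.27 (adjusted p = 0.0655). None of the 5 was called in homozygous against wild-type ExE, where their median was -0.19, beside -0.02 over all genes, with all pools and 0.05 without ExE hom 3.

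To place the catalytic subunits among all genes, the genes with the most similar pattern over the 6 group means were listed, from the root mean square difference of centred log2 CPM. For Ezh2 they were Anapc1, Slc20a2, Esco2, Flot2 and Gm13157, at 0.0396 to 0.0499. For Ezh1 they were Mlf1, Zfp191, Golph3l, Ube2g1 and Cep68, at 0.0427 to 0.0747. These were the nearest of 13595 genes over only 6 points, and the points share the libraries of steep slope.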

How the data were processed

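Per the labels' protocols, RNA of pooled E6.25 tissue (1 to 10 ng, RNA integrity number above 8) was amplified with a SMARTer kit and read as single 75-bp reads. The submitters' processing notes name cutadapt 1.7.1, FastX 0.0.13, ShortRead 1.16.3, TopHat2 2.0.12 and mm10. For the counting, the program, annotation and use of strand were not given in the sources used here. Raw counts per gene, not normalized, were deposited by the authors for all 23 libraries. Of 23725 lines, 27 had symbols altered into dates, and none of these was a PRC2 gene.

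The main test was the quasi-likelihood test of edgeR 4.0.16, run in R 4.3.3 (filterByExpr with a minimum count of 10 and total of 15, TMM scaling, glmQLFit and glmQLFTest, two-sided). All 23 libraries entered the tissue and interaction fits and the 3 genotypes of a tissue entered each genotype fit. P-values were adjusted by the Benjamini-Hochberg method over every gene in the fit and called under 0.05, and log2 fold changes use a prior count of 0.125. Levels are TMM-scaled CPM, and levels per kb use the exon length from GENCODE on GRCm38. Alternatives were DESeq2 1.42.0, median-ratio scaling, no filter, the pool number as a block, each pool left out, the 3 libraries of steep slope left out, and only the 2 groups compared. The fits of 2 comparisons were tested on simulated counts with the same spread for every gene and no libraries of steep slope. The simulation therefore does not cover such libraries. The design text ties E and ExE pools of the same number to the same litters in 3 of 4 pools, so the number was used to pair the tissues. Deviations of paired pools correlated at only -0.04 to 0.46. The 0.46 was that of E hom 3 and ExE hom 3, both of steep slope, and the next highest was 0.24. The Y-linked markers summed to 131 CPM in E wt 1 and to 4.56 CPM in ExE wt 1. Whether paired pools shared embryos was not tested.

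The members and gene lists were chosen with earlier results of these data known. All 10 members are given for the mean tissue difference over genotypes and for the homozygous comparisons, and the lowest and highest for the heterozygous and interaction ones. Tissue differences within a genotype are printed for some members only and plotted for all 10. Genes of other lists were named mainly by smallest p, up to 4 a list. Irx3 was named for its level among those called, and every gene of the imprinted list was named. Depth was 4912215 to 9494814 counts, and pools of a group differed by more than counting noise (chi-square 12.3 to 118 per degree of freedom over 33 pairs). P-values measure the spread between pools.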

Additional observations from a re-analysis of the deposited data

Results flagged for a closer look

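In 5 of 50 sets of a member and a group of 4 pools, 1 pool stood far from the other 3, where chance gives about 1 in 20 such sets. Ezh1 was at 11.2 CPM in ExE wt 5 and at 21.9 to 22.4 CPM in the other wild-type ExE pools. Jarid2 was at 517 CPM in E wt 5 and at 429 to 440.4 CPM in the other wild-type E pools. Rbbp4 was at 667 CPM in ExE het 1 and at 739 to 749.7 CPM in the other heterozygous ExE pools. The remaining 2 were both in E het 4, a library of steep length slope. There Suz12 was at 59.1 CPM, beside 197 to 221 CPM in the other heterozygous E pools, and Phf19 at 13.1 CPM, beside 0 to 0.922 CPM.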

How the results depend on the processing

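The mean tissue difference over genotypes kept its 5 called members (Phf19, Rbbp7, Suz12, Rbbp4 and Ezh1) whichever single pool was left out. Ezh2 and Phf1 joined them without E hom 3, and Ezh2 without ExE hom 4. The number of members called was less stable within a genotype. In wild type it was 1, but 2 by DESeq2, 4 with the replicate block, 4 with only the 2 groups compared and 5 without the 3 libraries of steep slope. In heterozygous pools it was 3, but 5 without those libraries, and 2 with no filter or with only the 2 groups compared, where Rbbp4 was no longer called (adjusted p of 0.116 and 0.0908 by edgeR). In homozygous pools it was 2, but 4 with the replicate block, 4 without those libraries and 1 with only the 2 groups compared. Leaving out 1 pool gave 0 to 2 calls in wild type, 1 to 2 in heterozygous and 0 to 2 in homozygous pools. No member was called in a genotype comparison in any setting run. The replicate block, which pairs pools of a number, changed no call of a member beyond those given above with the tissue results. Over all genes, 2347 were called between tissues in wild type, 3672 without those libraries and 1502 without ExE wt 2. In homozygous pools it was 2282, but 1009 with only the 2 groups compared and 1311 without ExE hom 1. The causes were not tested.

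Signs turned only for values that were not called. With the replicate block, Eed was at -0.14 between tissues in heterozygous pools and at 0.019 in homozygous E, Phf1 at -0.19 in homozygous E, 0.077 in homozygous ExE and 0.25 in the heterozygous interaction, and Phf19 at 1.05 in homozygous E and 0.076 in homozygous ExE. Without the 3 libraries of steep slope, tissue values were -0.094 for Eed and -0.064 for Jarid2 in heterozygous pools and 0.068 for Jarid2 in homozygous pools. In homozygous E they were then 0.068 for Eed, 0.031 for Mtf2, -0.77 for Phf1 and -0.0023 for Rbbp4, and Suz12 in heterozygous E was at 0.015. In homozygous ExE they were 0.12 for Eed, 0.13 for Ezh2, 0.13 for Mtf2, 0.015 for Phf19 and 0.18 for Suz12, and the Phf1 interaction was 0.36 (homozygous) and 0.42 (heterozygous). In homozygous ExE, Phf1 and Rbbp4 were at 0.023 and 0.00090 by DESeq2 and at 0.025 and 0.0011 with median-ratio scaling, and Rbbp4 was at -0.0053 in homozygous E with no filter.

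Leaving out 1 pool at a time turned further uncalled values. Between tissues, heterozygous pools gave -0.070 to 0.14 for Eed, -0.039 to 0.24 for Jarid2 and -0.26 to 0.071 for Mtf2, and homozygous pools gave -0.66 to 0.067 for Ezh2, -0.47 to 0.034 for Eed, -0.19 to 0.25 for Jarid2 and -0.50 to 0.15 for Mtf2. Homozygous E gave -0.52 to 0.081 for Ezh1, -0.10 to 0.069 for Eed, -0.37 to 0.033 for Mtf2, -0.77 to 1.54 for Phf1, -0.90 to 1.47 for Phf19 and -0.029 to 0.025 for Rbbp4, and heterozygous E gave -0.42 to 0.0097 for Suz12. Homozygous ExE gave -0.60 to 0.13 for Ezh2, -0.39 to 0.12 for Eed, -0.58 to 0.18 for Suz12, -0.52 to 0.13 for Mtf2, -0.42 to 0.46 for Phf1, -0.57 to 0.16 for Phf19, -0.071 to 0.014 for Rbbp4 and -0.16 to 0.43 for Rbbp7. The Phf1 interaction ran from -1.54 to 0.79 (homozygous) and from -1.15 to 0.42 (heterozygous). With 1 to 70 reads for Phf1 and 0 to 82 for Phf19 in E, depth limits both.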
